A study of Gallus gallus with 6 samples.

Results

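Ribosomal protein genes were followed in the granulation tissue (GT) of chick embryos. Members were all genes whose symbol in the platform annotation is RPL or RPS with a number, or RPLP0, RPLP1, RPLP2 or RPSA. S6 kinases and names that end in L1 were left out. The rule found 63 genes with 133 probe sets, among 13009 named genes and 38439 probe sets tested. Of these genes 40 encode proteins of the large ribosomal subunit and 23 of the small subunit. For each gene the probe set with the highest mean over the 6 arrays was used, a choice that does not use the difference between wound and control.

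The chorioallantoic membrane (CAM) is the vascularised outer membrane of the chick embryo. Wound CAM from 3 Brown Leghorn eggs was set against control CAM from the same 3 eggs, with 1 Affymetrix chicken GeneChip per sample. Wounding removed the epithelium of a small field by scalpel, GT grew into a nylon mesh laid over it, and RNA was taken 6 days later. The control was unwounded membrane. The strain, age and culture were shared by both groups, the labels name no genotype or drug, and the whole tissue was extracted, so the values average over all of its cells. The embryo at this stage lacks a mature immune system, which limits it as a model of adult repair. In such bulk tissue, fewer cells of a type and less RNA per cell cannot be told apart.

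Cytosolic ribosomes consist of ribosomal RNA and about one protein of each kind, assembled in the nucleolus into a small subunit, which reads the mRNA, and a large subunit, which forms the peptide bond. In vertebrates most ribosomal protein mRNAs start with a terminal oligopyrimidine (TOP) tract, through which the TOR pathway controls their translation. Growing tissue, as in repair, needs many ribosomes. The mRNAs are among the most abundant of a cell, and arrays measure the mRNA and not the protein or the number of ribosomes.

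In the deposited values 62 of the 63 genes had a log2 fold change above 0, wound minus control, and 1 (RPS13) was below 0. The median log2 fold change was 0.23, 17.0% higher in wound, with quartiles of 0.15 and 0.28. Over all probe sets the median was 0.0011, and 52.0% lay above 0. Of the 63 genes 10 rose past the test (limma, Benjamini-Hochberg adjusted p under 0.05 over all probe sets), 0 fell and 53 did not pass. These 10 are 15.9% of the members. The same test called 2.04% of all probe sets higher and 0.304% lower in wound, and 3.92% of genes higher when each gene had 1 probe set. Another 15 members had an adjusted p between 0.05 and 0.1, and 44 had an unadjusted p under 0.05, all of them higher in wound. Among all 38439 probe sets, 3889 had an unadjusted limma p under 0.05 and were higher in wound. In 46 genes (73.0%) every wound lay above every control, in 0 every wound lay below, and in 17 the groups overlapped. Among all probe sets 13.7% had all 3 wounds above all 3 controls and 6.12% all below, and with 1 probe set per gene 20.8% had all wounds above. When the replicate number was entered as a block, 0 members passed, against 0.702% of all probe sets called higher, and the adjusted p of the 10 genes ran over 0.0552 to 0.0909. Without control 1 or control 3, too, 0 members passed, and the share of all probe sets called without these arrays is not given here. The sign of the median also depended on the scaling. Quantile normalization was applied to the deposited probe set values, which the authors had already normalized. It gives every array the same distribution, and members held 69 of the 170 probe sets with a mean of 12 or more. A change that the members share can be removed by this step, so it cannot decide the direction. As deposited, the 95th and 99th percentiles of all probe sets were also higher in wound, by 0.21 and 0.37. The part of that shift in the members' differences was not tested. After quantile normalization the median log2 fold change of the 63 genes was -0.013, with 28 above and 35 below 0. The median member intensity per array stayed higher in wound by 0.052.

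**Figure D1:**
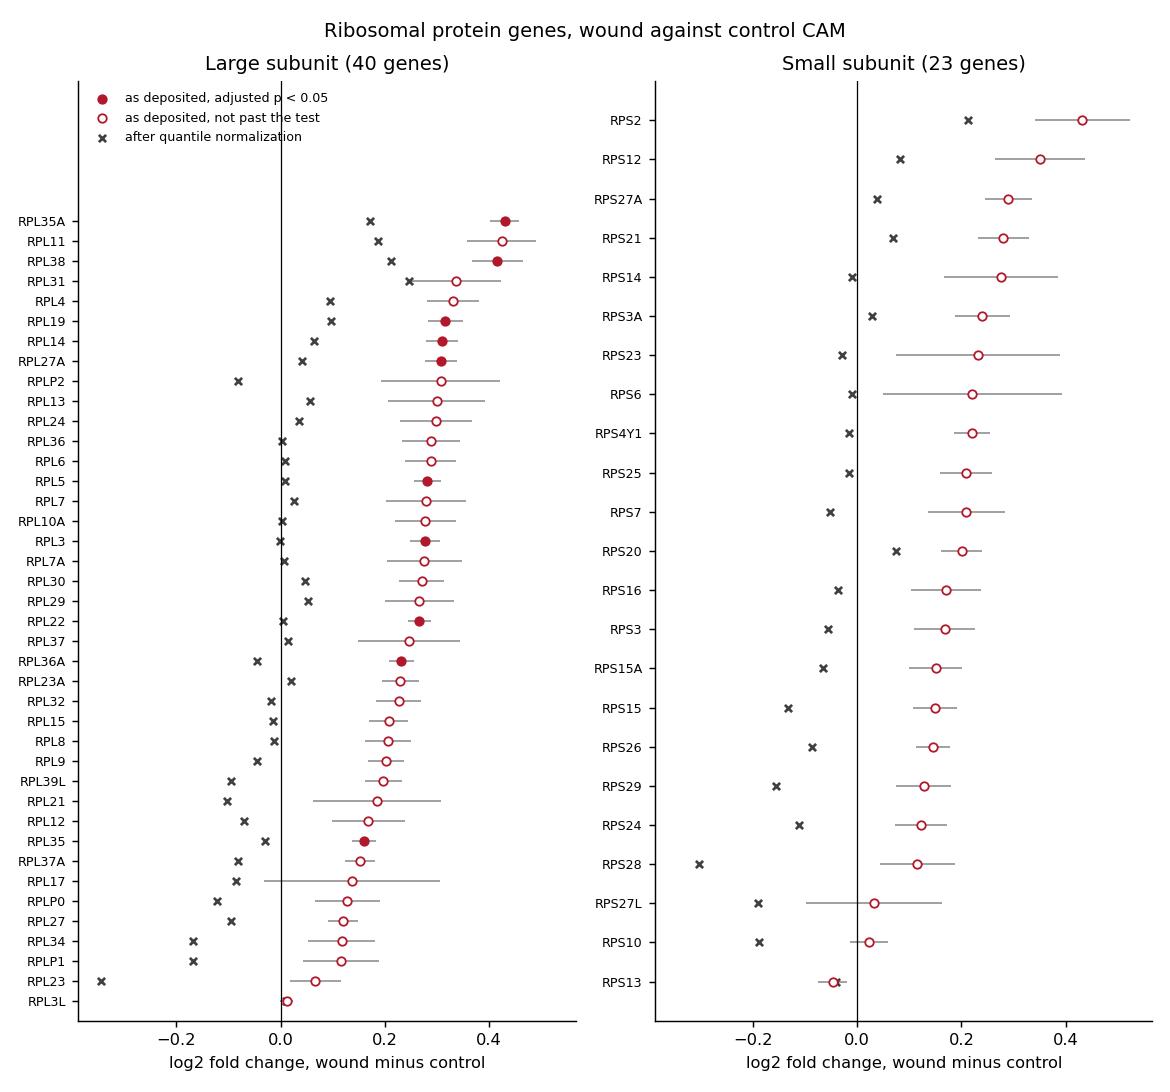
Log2 fold change, wound minus control, of each of the 63 ribosomal protein genes (points, with the standard error from limma as bars), for the large subunit on the left and the small subunit on the right. As deposited, 62 genes lie above 0 and the 10 filled points passed the test, while the crosses, after quantile normalization, lie around 0 with 28 above and 35 below.

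The 10 genes past the test all belong to the large subunit. Their log2 fold changes ran from 0.16 to 0.43, which is 11.8% to 34.8% higher in wound, with standard errors of 0.022 to 0.049. RPL35A, a large subunit protein mutated in some patients with Diamond-Blackfan anaemia, had the lowest adjusted p. Its log2 intensity was 12.31, 12.33 and 12.36 in wounds 1 to 3, against 11.88, 11.95 and 11.87 in controls 1 to 3. The groups lay far apart relative to their spread, with a log2 fold change of 0.43 ± 0.027 (SE, n = 3 each, limma adjusted p = 0.0147). It was the only member still called after quantile normalization, at 0.17 (adjusted p = 0.0395), where 0.315% of all probe sets were called higher. With the block its adjusted p was 0.0552. RPL38, which in the mouse is needed for the translation of particular Hox mRNAs, had 13.41, 13.34 and 13.51 in wound and 13.04, 12.99 and 12.99 in control (0.42 ± 0.049, adjusted p = 0.0332). Wound 3 was the highest of its arrays, and the lowest wound was above the highest control. After quantile normalization RPL38 was at 0.21 and did not pass (limma adjusted p = 0.297). Other bright probe sets of RPL38 had differences of 0.26 (limma adjusted p = 0.285) and 0.43 (limma adjusted p = 0.0486).

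RPL19, which takes part in a bridge between the subunits, had log2 intensities of 13.48, 13.44 and 13.48 in wound, against 13.09, 13.17 and 13.20 in control. RPL14 had 13.13, 13.17 and 13.08 in wound, against 12.79, 12.84 and 12.82 in control. RPL27A had 13.69, 13.62 and 13.60 in wound, against 13.30, 13.35 and 13.35 in control. In these 3 genes the differences were of like size, 0.31 to 0.32, and no wound overlapped a control (limma adjusted p between 0.0236 and 0.0266). After quantile normalization RPL19, RPL14 and RPL27A were at 0.097, 0.064 and 0.041, and none of them passed. A second bright probe set of RPL19 had a smaller difference, 0.19, and did not pass (limma adjusted p = 0.125). After quantile normalization that probe set was at -0.058. RPL3 lies near the peptidyl transferase centre, where the peptide bond is made. It had 12.92, 12.88 and 12.95 in wound and 12.61, 12.68 and 12.63 in control (0.28 ± 0.029, adjusted p = 0.0259), and after quantile normalization its difference was -0.00098. RPL22, which in mammals is dispensable for most translation and has a paralog in RPL22L1, had 12.74, 12.69 and 12.72 in wound and 12.43, 12.48 and 12.45 in control (0.27 ± 0.022, adjusted p = 0.0185). The difference of RPL22 was 0.0047 after quantile normalization (limma adjusted p = 0.974). RPL36A, a protein of the exit site for tRNA, had 12.78, 12.83 and 12.84 in wound and 12.57, 12.57 and 12.61 in control (0.23 ± 0.024, adjusted p = 0.0253). Its difference was -0.046 after quantile normalization. RPL35, near the exit of the peptide tunnel, had the smallest change past the test, with 13.94, 13.98 and 13.95 in wound and 13.77, 13.84 and 13.79 in control (0.16 ± 0.023, adjusted p = 0.0495), and it was at -0.031 after quantile normalization. At the threshold, RPL35 passed at 0.0495 and RPL4, a protein that lines the tunnel, did not at 0.0534. RPL4 had a larger difference, 0.33 ± 0.050, with 13.24, 13.10 and 13.22 in wound and 12.80, 12.86 and 12.90 in control. Which genes passed thus followed the spread between arrays as well as the size of the difference. Leaving out 1 array at a time kept all 10 differences above 0, but between 0 and 8 of the 10 genes remained past the test.

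**Figure D2:**
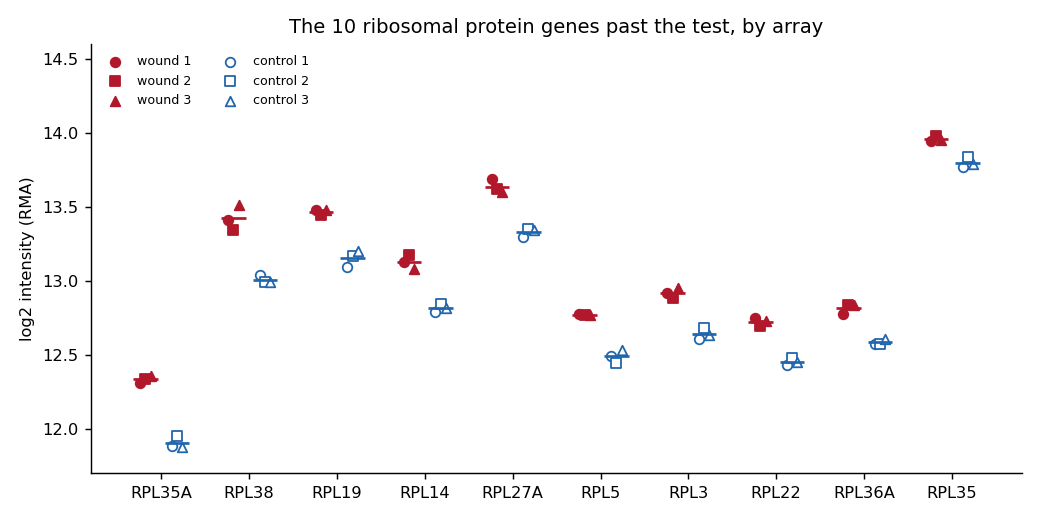
Log2 intensity of the 10 ribosomal protein genes past the test, with wounds (filled) left of controls (open), 1 marker shape per replicate number and lines at the group means. All wounds lie above all controls in each gene as deposited, by 0.16 (RPL35) to 0.43 (RPL35A) on the log2 scale. After quantile normalization RPL3, RPL36A and RPL35 turned below 0, RPL22 (0.0047) and RPL5 (0.0086) were close to 0, and only RPL35A passed.

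RPL5 and RPL11 form a particle with 5S ribosomal RNA, and in human and mouse cells the free particle binds MDM2, the ubiquitin ligase of p53. RPL5 was nearly constant in wound, at 12.78, 12.77 and 12.77, against 12.49, 12.44 and 12.53 in control (0.28 ± 0.026, limma adjusted p = 0.0221). After quantile normalization RPL5 was at 0.0086 (limma adjusted p = 0.956). RPL11 had 13.25, 13.32 and 13.08 in wound and 12.77, 12.81 and 12.81 in control. Its difference was larger, 0.42 ± 0.067, but wound 3 lay below the other wounds and it did not pass (adjusted p = 0.0589). Of 6 measured genes of the p53 arm, 1 rose, where 3.92% of all genes were called higher. This was CDKN1A, the p21 inhibitor of the cell cycle. It had 5.85, 5.76 and 5.65 in wound and 4.90, 4.62 and 4.44 in control (1.10 ± 0.13, adjusted p = 0.0350). With the block CDKN1A had an adjusted p of 0.0524, and after quantile normalization one of 0.0939. MDM2 itself had a log2 fold change of -0.13 (adjusted p = 0.561), and SESN1, the brightest of the list, one of -0.19 (adjusted p = 0.419).

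The stalk proteins RPLP0, RPLP1 and RPLP2 recruit elongation factors to the large subunit. None of the 3 passed. RPLP0 had log2 intensities of 13.06, 12.92 and 13.00 in wound and 12.80, 12.97 and 12.83 in control, so that wound 2 lay below control 2 (0.13 ± 0.063, limma adjusted p = 0.493). RPLP1 had 12.80, 12.72 and 12.98 in wound, against 12.67, 12.73 and 12.75 in control (0.12 ± 0.072, adjusted p = 0.634). RPLP2 had a larger but less even difference, with 11.10, 11.19 and 11.25 in wound, against 10.92, 10.65 and 11.04 in control (0.31 ± 0.11, adjusted p = 0.330). After quantile normalization the 3 stood at -0.12, -0.17 and -0.081. RPL39L, which RefSeq also lists as RPL39, had 12.90, 12.89 and 12.97 in wound and 12.69, 12.70 and 12.78 in control. Its groups did not overlap (0.20 ± 0.035, adjusted p = 0.0772), and after quantile normalization it was at -0.094.

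None of the 23 small subunit genes passed, although 22 had a log2 fold change above 0 and in 14 all wounds lay above all controls. In the large subunit, 32 of 40 had all wounds above all controls. Among all genes, with 1 probe set each, 20.8% had all wounds above all controls. The median was 0.20 (14.9% higher in wound) in the small subunit and 0.27 (20.3%) in the large one, and the difference between the subunits was not tested. RPS2, at the entry of the mRNA channel, had the highest log2 fold change of all members. It had 13.23, 13.13 and 13.28 in wound and 12.61, 12.84 and 12.89 in control, so that control 1 lay well below the other controls (0.43 ± 0.091, limma adjusted p = 0.105). RPS27A, made as a fusion with ubiquitin, had 13.16, 13.13 and 13.12 in wound and 12.77, 12.92 and 12.85 in control (0.29 ± 0.044, adjusted p = 0.0552). RPS4Y1, for which RefSeq lists RPS4 and RPS4X as synonyms, had 13.52, 13.45 and 13.54 in wound and 13.24, 13.30 and 13.31 in control (0.22 ± 0.035, adjusted p = 0.0582). RPS27A and RPS4Y1 thus missed the threshold by little, and RPS4Y1 was at -0.015 after quantile normalization.

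RPS14, whose loss causes the anaemia of the human 5q- syndrome, had 13.11, 13.06 and 12.95 in wound and 12.65, 12.98 and 12.66 in control, where control 2 overlapped the wounds (0.28 ± 0.11, limma adjusted p = 0.368). RPS3, which lies at the mRNA entry and also acts in DNA repair, had 13.28, 13.30 and 13.32 in wound and 13.08, 13.26 and 13.06 in control (0.17 ± 0.058, adjusted p = 0.291). Control 2 was again the highest control. RPS25, used by several viral internal ribosome entry sites, had 13.40, 13.44 and 13.41 in wound and 13.12, 13.30 and 13.20 in control (0.21 ± 0.050, adjusted p = 0.135). After quantile normalization RPS14, RPS3 and RPS25 were at -0.0103, -0.056 and -0.016. RPS20 and RPS3A were among the brightest probe sets, at a mean of 14.03 and 13.86. RPS20 had 14.12, 14.07 and 14.21 in wound against 13.93 in each of the 3 controls (0.20 ± 0.039, adjusted p = 0.0890). Its 3 deposited control values were identical (SD 0.0), and the reason was not tested. RPS3A had 14.05, 13.96 and 13.93 in wound and 13.65, 13.80 and 13.77 in control (0.24 ± 0.053, adjusted p = 0.115).

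RPS10, a target of ubiquitin ligases on collided ribosomes in human cells, stood out among the bright members for its small difference. It had 13.74, 13.71 and 13.82 in wound and 13.70, 13.75 and 13.75 in control (0.023 ± 0.036, limma adjusted p = 0.937). Its groups overlapped, and the difference was -0.19 after quantile normalization. RPL23, another protein that binds MDM2 in human cells, had 11.22, 11.05 and 11.16 in wound and 11.04, 11.09 and 11.10 in control (0.067 ± 0.049, adjusted p = 0.721). After quantile normalization it had the lowest value of all members, -0.34, with an adjusted p of 0.123.

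The members were measured at the top of the arrays' range, where the distribution of all probe sets also differed between the groups. Their median log2 intensity was 13.19, 13.23 and 13.19 in wounds 1 to 3, against 12.80, 12.98 and 12.92 in controls 1 to 3, which gives 13.2 ± 0.020 in wound and 12.9 ± 0.093 in control (SD, n = 3 each). Control 1 was the lowest array and no wound overlapped a control. The 99th percentile of all probe sets was 10.86, 10.89 and 10.90 in wound, against 10.47, 10.60 and 10.47 in control, a difference of 0.37. The 95th percentile lay at 8.34 to 8.45 in wound and 8.15 to 8.20 in control, and the median at 3.01 to 3.05 in both groups. The maximum was 15.089 to 15.103 in wound, and each control lay within that range. The 95th and 99th percentiles were thus shifted between the groups, and the median and the maximum were not. A further percentile, between the 99th and the maximum, was shifted too, by 0.36. It lay at 11.97 to 12.02 in wound and 11.56 to 11.71 in control. The maximum is set by 1 probe set per array, so it does not show that the range of the members was unshifted. Of 170 probe sets with a mean of 12 or more, 69 belonged to members. As a position within its own array, the median member stood at percentile 99.8205 to 99.8231 in wounds and 99.8049 to 99.8127 in controls, without overlap. After quantile normalization, which gives every array the same distribution, the median log2 intensity of the members was still higher in every wound, at 13.073 to 13.083 in wound and 13.021 to 13.041 in control, a difference of 0.052. The step sets each value by its rank within the array, so this restates the percentiles and is not a separate result. The median of the genes' own differences was -0.013, which differs in sign from the 0.052. The log2 fold changes of the 63 genes ran from -0.34 to 0.25, 5 genes had all wounds above all controls and 9 all below. At an unadjusted p under 0.05, 5 were then higher and 8 lower in wound. The shares of all probe sets for these counts after quantile normalization are not given here, so the counts lack a background. The part of the shifted upper percentiles in the result was not tested.

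**Figure D3:**
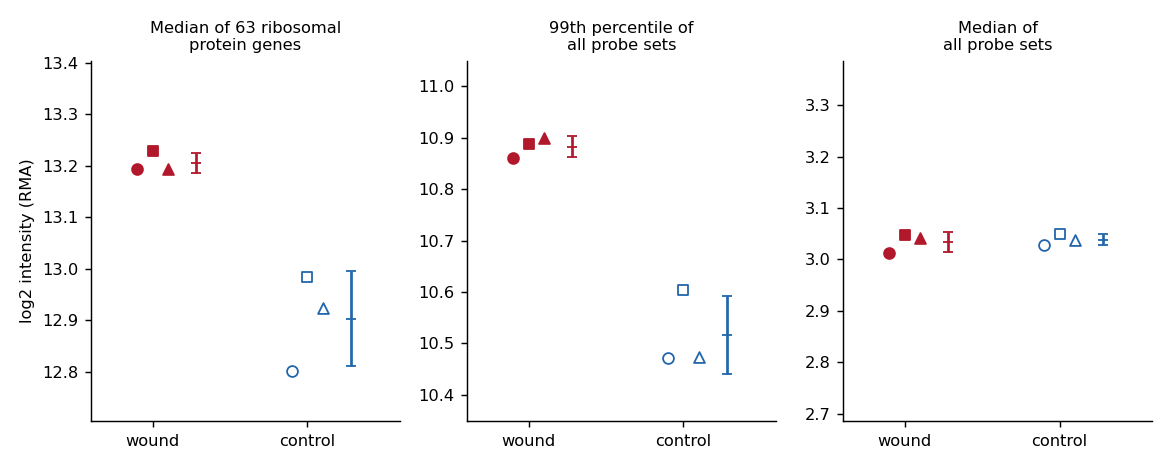
Log2 intensity per array of the median ribosomal protein gene (left), the 99th percentile of all probe sets (middle) and their median (right), with wounds filled and left of the open controls, 1 marker shape per replicate number and the mean ± SD beside each group. Wounds lie above controls in the member median, 13.19 to 13.23 against 12.80 to 12.98, and in the 99th percentile, 10.86 to 10.90 against 10.47 to 10.60, but not in the median of all probe sets. After quantile normalization the member median was still higher in every wound, by 0.052 between the group means, and the median of the genes' changes was -0.013.

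Within pairs of equal replicate number, the median difference over the 63 genes was 0.28 in pair 1, 0.16 in pair 2 and 0.22 in pair 3, wound minus control. Above 0 were 63, 55 and 61 genes. In 54 genes all 3 pairs were above 0, which 23.2% of all probe sets also were. Pair 2 had the smallest difference, and control 2 had the highest member median of the 3 controls.

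Of the 133 probe sets, 74 had a mean log2 intensity of 10 or more, and these covered 59 of the 63 genes. All 74 had a log2 fold change above 0 as deposited, between 0.023 and 0.50 with a median of 0.23. Of the 74, 11 were called higher, where 2.04% of all probe sets were. The share among all probe sets of like brightness is not given here. Another 53 probe sets lay under 6. Of these 29 were above 0, the median was 0.0024, 41 lay within 0.1 of 0 and 0 were called. Differences above 0 thus prevailed among bright and not among dim probe sets, and 32 genes had several probe sets. Whether a dim probe set detects its named gene at all was not tested. Among the bright ones, 15 had not been chosen to represent their gene, and these too were all above 0, from 0.17 to 0.50. RPS7, mutated in some patients with Diamond-Blackfan anaemia, had the widest gap between bright probe sets, 0.21 in the chosen one and 0.43 in the other. RPL24, a subunit bridge protein, had 7 probe sets. The 3 bright ones had log2 fold changes of 0.30, 0.23 and 0.45, and the 4 dim ones lay between -0.019 and 0.067. RPL9 had 0.20 in its bright probe set (limma adjusted p = 0.0708), and -0.26 (adjusted p = 0.743) in a probe set with a mean of 7.63. Levels of different probe sets depend on their probes, so they do not order the genes by mRNA amount.

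**Figure D4:**
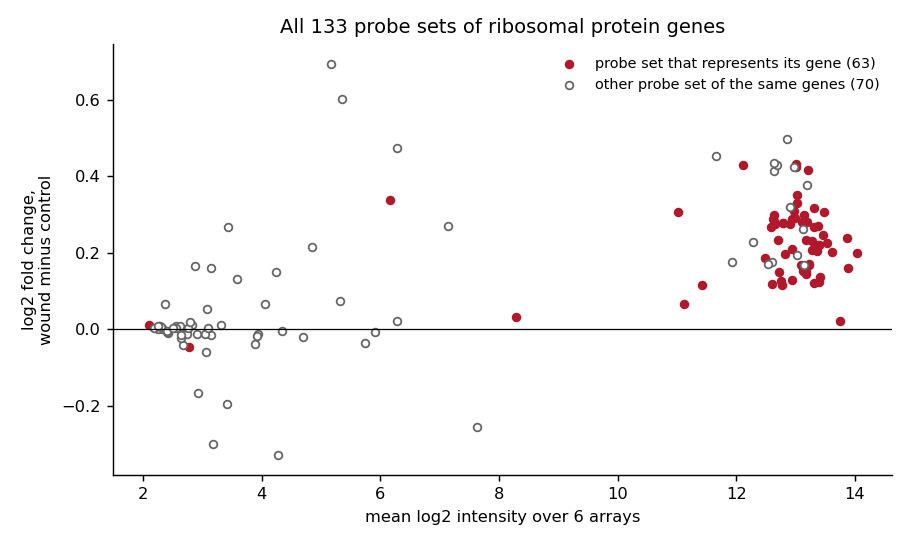
Log2 fold change, wound minus control, against mean log2 intensity for the 133 probe sets of ribosomal protein genes, filled where the probe set represents its gene. The 74 probe sets at 10 or more all lie above 0, with a median of 0.23, and the 53 under 6 scatter around 0, with a median of 0.0024. These are deposited values, and after quantile normalization the median change of the 63 genes was -0.013.

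The 4 members without a bright probe set were RPL31, RPS27L, RPL3L and RPS13. RPL31, a protein at the tunnel exit, had 6.51, 6.20 and 6.28 in wound and 6.01, 5.96 and 6.01 in control, without overlap (0.34 ± 0.086, limma adjusted p = 0.158). RPS27L, a relative of RPS27 that p53 induces in human cells, had 8.49, 8.23 and 8.19 in wound and 8.48, 8.13 and 8.20 in control (0.032 ± 0.13, adjusted p = 0.995). In both groups of RPS27L, array 1 was the highest, and without 1 array its difference ran over -0.062 to 0.14. RPL3L, a form of RPL3 found in mammalian striated muscle, was near the floor of the arrays, at 2.10 to 2.12 in wound and 2.09 to 2.10 in control (0.012 ± 0.013, adjusted p = 0.851). RPS13 is the 1 member below 0. It had 2.80, 2.75 and 2.71 in wound and 2.79, 2.82 and 2.80 in control (-0.048 ± 0.028, adjusted p = 0.604), and all 5 probe sets annotated to RPS13 alone were dim. A bright probe set annotated to both GNAL and RPS13, which the rule leaves out, had a difference of 0.24 (adjusted p = 0.153), so the value below 0 rests on a probe set near the floor.

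Ribosomal protein genes are scattered over the genome, and the 63 lie on 27 chromosomes of RefSeq's GRCg7b assembly. RPL17, RPL37, RPS6 and RPS23 lie on chromosome Z, the sex chromosome of which male birds carry a pair and females a single copy. These 4 were singled out after their values were seen. All were highest in replicate 2, in wound and in control alike. RPS6, the substrate of the S6 kinases, had 13.40, 13.70 and 13.40 in wounds 1 to 3 and 13.09, 13.60 and 13.16 in controls 1 to 3. RPL17 had 13.35, 13.65 and 13.40 in wound and 13.17, 13.65 and 13.18 in control. Wound 2 stood above the mean of wounds 1 and 3 by a median of 0.29 over the 4 genes, and control 2 above controls 1 and 3 by 0.41. In the other 59 members these differences were -0.0036 and 0.048, and 25 of 59 (42.4%) were above 0 in both groups, against 4 of 4 on Z. Of all 605 genes on Z, 73.7% were above 0 in both groups, and of 12231 on other chromosomes 44.2%.

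HINTW, a gene of the female-specific chromosome W, was at 12.15, 2.37 and 11.93 in wounds 1 to 3 and 11.61, 2.37 and 11.44 in controls 1 to 3. The labels do not give the sex of the embryos. The replicate 2 arrays widened the spread of the Z-linked members within each group. RPS6 had a difference of 0.22 ± 0.17 (limma adjusted p = 0.748), RPS23 of 0.23 ± 0.16 (adjusted p = 0.683), RPL37 of 0.25 ± 0.10 (adjusted p = 0.368) and RPL17 of 0.14 ± 0.17 (adjusted p = 0.886). With the block, which compares within replicate numbers, the adjusted p was 0.204 for RPS6, 0.233 for RPS23, 0.102 for RPL37 and 0.424 for RPL17. After quantile normalization RPL37 was at 0.015 and the other 3 were below 0.

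**Figure D5:**
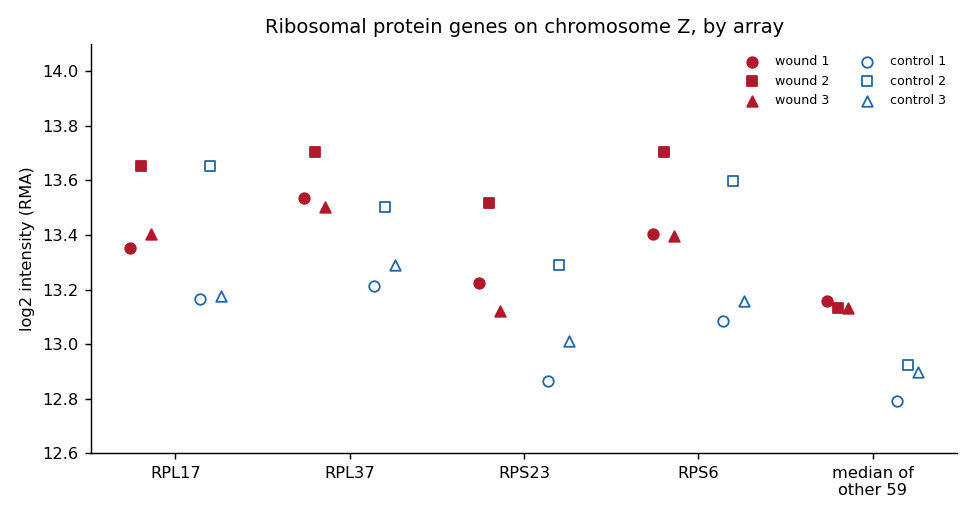
Log2 intensity of the 4 ribosomal protein genes on chromosome Z and the median of the other 59, by array, with wounds (filled) left of controls (open) and 1 marker shape per replicate number. Replicate 2 (squares) is the highest of both groups in each Z-linked gene, while the median of the other 59 genes was 13.13 in wound 2, against 13.16 and 13.13 in wounds 1 and 3, and 12.92 in control 2, against 12.79 and 12.90 in controls 1 and 3.

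Other genes of ribosome production and translation were counted in lists. Of 76 measured ribosome assembly factors, 67 had a log2 fold change above 0, with a median of 0.30 (0.16 after quantile normalization), 2 rose and 0 fell, where 3.92% of all genes were called higher. After quantile normalization 61 were above 0 and 0 passed, and with the block 3 were called higher, against 0.702% of all probe sets. NOP16, a nucleolar factor of large subunit assembly, had 6.96, 7.22 and 6.73 in wound and 5.90, 6.04 and 5.77 in control (1.07 ± 0.15, limma adjusted p = 0.0455, and 0.0476 with the block). NHP2, a core protein of the particles that make pseudouridine, had 7.41, 7.43 and 7.34 in wound and 6.99, 6.87 and 6.76 in control (0.52 ± 0.067, adjusted p = 0.0389, and 0.0640 with the block). Both genes kept all wounds above all controls. NPM1, the brightest of the list, had a difference of 0.26 and did not pass (adjusted p = 0.370).

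Of 26 initiation factors 22 were above 0, with a median of 0.38 (0.13 after quantile normalization), 6 rose and 0 fell, where 3.92% of all genes were called higher. After quantile normalization 15 were above 0 and 1 passed (EIF3J, adjusted p = 0.0485), against 0.315% of all probe sets called higher. With the block 2 passed by the same limma test, against 0.702% of all probe sets. EIF1AX, which helps the small subunit to scan for the start codon, had 9.45, 9.27 and 9.39 in wound and 8.58, 8.54 and 8.57 in control (0.81 ± 0.052, limma adjusted p = 0.0147, and 0.0469 with the block). EIF3J, a loosely bound subunit of factor eIF3, rose by 0.75 ± 0.053 (adjusted p = 0.0153, and 0.0660 with the block). EIF4G2, a relative of the scaffold EIF4G1 and the brightest of the list, rose by 0.63 ± 0.084 (adjusted p = 0.0420, and 0.111 with the block). Their differences exceeded those of every ribosomal protein gene. Of 20 elongation factors and other products of TOP mRNAs, 18 were above 0, with a median of 0.22 (-0.049 after quantile normalization). Of the 20, 1 rose, where 3.92% of all genes were called higher. This was NAP1L1, a histone chaperone, at 0.55 ± 0.074 (adjusted p = 0.0420, and 0.0417 with the block), which did not pass after quantile normalization (adjusted p = 0.426). EEF1A1, the factor that brings tRNA to the ribosome, had a difference of 0.14 (adjusted p = 0.364).

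Mitochondrial ribosomal proteins belong to a separate ribosome that translates mitochondrial mRNAs. Of 67 measured 60 were above 0, with a median of 0.28 (0.14 after quantile normalization), 1 rose and 0 fell, where 3.92% of all genes were called higher. With the block 4 were called higher, against 0.702% of all probe sets, and after quantile normalization 46 were above 0 and 0 passed. MRPL48 had 6.53, 6.64 and 6.56 in wound and 6.11, 6.17 and 6.10 in control (0.45 ± 0.039, limma adjusted p = 0.0211, and 0.0442 with the block). Of 26 genes of TOR and MYC control 14 were above 0, with a median of 0.051 (-0.093 after quantile normalization). Of these 26, 2 rose and 0 fell, where 3.92% of all genes were called higher. After quantile normalization 0 passed. With the block 1 was called higher, against 0.702% of all probe sets, and it was neither RPS6KB1 nor RRAGD. RPS6KB1, the S6 kinase downstream of TOR, had 6.37, 6.31 and 6.12 in wound and 5.68, 5.60 and 5.68 in control (0.61 ± 0.072, adjusted p = 0.0333, and 0.0858 with the block). RRAGD, a GTPase that brings TOR to the lysosome, rose by 1.11 ± 0.12 (adjusted p = 0.0303, and 0.0984 with the block). RPS6KB1 was the 1 gene past the test among 9 measured RPS6K kinases, where 3.92% of all genes were called higher. The median of the 9 was 0.071.

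Markers of the cell types in the tissue were counted in the same way. Of 11 myeloid markers 10 were above 0 and 6 rose (limma), where 3.92% of all genes were called higher, with a median log2 fold change of 2.10. With the block 1 myeloid marker passed, against 0.702% of all probe sets called higher. After quantile normalization 4 of these markers passed, against 0.315% of all probe sets, with a median of 1.93. Their summed level on the linear scale of intensity was 8810 to 10300 in wound and 2000 to 2910 in control. LYZ was the marker below 0, at -0.17 (adjusted p = 0.987). Of 12 endothelial markers 1 was above 0, none passed, and the summed level was 2610 to 4340 in wound and 5310 to 6040 in control. In 9 of the 12 all wounds lay below all controls, as in 6.12% of all probe sets, and in 0 above. Of 10 fibroblast markers 2 were above 0 and none passed, with sums of 19800 to 38900 in wound and 36600 to 39800 in control. With the block 1 fibroblast marker was called higher, against 0.702% of all probe sets. In 2 of the 10 all wounds lay above all controls, and in 2 all below. All 8 epithelial markers were above 0 and 2 rose, EPCAM by 0.73 (adjusted p = 0.0151) and CLDN1 by 0.79 (adjusted p = 0.0110), with sums of 25900 to 27500 in wound and 16100 to 17400 in control. With the block 1 of these calls was kept (CLDN1, adjusted p = 0.0417), against 0.702% of all probe sets called higher. After quantile normalization 0 epithelial markers passed and the median of the list was 0.28, against 0.60 as deposited. Of 10 proliferation markers 9 were above 0, with a median of 0.41, and none passed. The 6 erythroid markers had a median of -0.054, and their sums overlapped, at 53800 to 64700 in wound and 56600 to 64400 in control. None of these lists had a marker with a mean under 3. The median of the 5 smooth muscle markers was -1.46 with none past the test, and that of the 8 T cell markers 0.0093, with 3 under a mean of 3. The part of these shifts in the ribosomal protein result was not tested.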

How the data were processed

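Total RNA of 3 wound and 3 control CAM samples was hybridised to 1 array each. The values the authors deposited are on a log2 scale, 1 per probe set and array. The submitters' processing notes name RMA, of a version not given in the sources used here. GCOS scaling, also named in the methods, would leave linear signals, and the values are not linear. All 6 columns of array values were used (0 left out). Depth does not apply to arrays, and the number of arrays limits the precision. Gene symbols came from the platform annotation, in which 27168 probe sets have 1 symbol, 177 several and 11094 none, and none was named from several. RPS4Y1 was counted as a member and RPS19BP1, a binding protein, was not.

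Wound minus control was fitted in R 4.3.3 by lmFit and eBayes of limma 3.58.1 on the deposited log2 values, with Benjamini-Hochberg adjustment over 38439 probe sets without control probe sets and a threshold of 0.05. Tables were made with pandas 2.3.3 in Python 3.11.15, and the fit was tested on simulated data. The SAM test of the methods was not run. The tests treat the 3 eggs as replicates. Wound and control came from the same eggs, but no source states that equal numbers mark 1 egg. The deviations from the group means correlated at 0.58, 0.63 and 0.45 between wound and control of equal number (across probe sets, which are not independent replicates). Between those of unequal number they correlated at -0.45 to -0.12. Deviations cancel within a group, so the values at unequal numbers add no separate support. Equal numbers were taken to pair the samples in the fit with the block, and the main fit did not use the pairing. With 3 samples a group, an exact permutation test cannot go below 0.1 unpaired or 0.25 paired, so none was used.

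Alternatives were the replicate number as a block, quantile normalization of the arrays, equal array medians and a filter on dim probe sets. Further ones were limma with trend and robust, other choices of probe set, and leaving out each array. Quantile normalization was applied to the deposited probe set values, on top of RMA. The members, the lists and the naming rule were chosen with earlier results of these data known. The rule names members past the test, the 4 highest and 4 lowest changes and levels, members of known role, members ending in L with their partners, and members whose probe sets differ by over 3 in level or 1 in change. In each of the lists it names up to 3 members past the test and the brightest. RPL17, RPL37, RPS23, RPL4, RPS7, RPL23, RPL24, RPS4Y1 and RPL9, and MDM2, HINTW and markers named one by one, were singled out after their values were seen. Some ribosomal protein genes are not reported here.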

Additional observations from a re-analysis of the deposited data

How the results depend on the processing

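Of the 63 genes 10 were called higher as deposited, where 2.04% of all probe sets were. The count was 0 with the replicate number as a block (0.702% of all probe sets) and 1 after quantile normalization (0.315%). It was 3 with a filter on dim probe sets (61 genes left), 0 in limma with trend and robust, and 6 with the probe set of second highest mean. Those 6 were RPL14, RPL22, RPL3, RPL35, RPL36A and RPL5, which have 1 probe set each, so this setting could not change them. RPL19, RPL27A, RPL35A and RPL38 have a second probe set, and none passed with it (limma adjusted p 0.125, 0.999, 0.397 and 0.285). The second probe sets of RPL27A and RPL35A were dim. With quantile normalization and block together, which was chosen after seeing the data, the count was 0. It was 14 with equal array medians and 12 with the mean of all probe sets. With 1 array left out the count ran over 0 to 10: 0 without control 1 or control 3, 1 without control 2, 3 without wound 1 or wound 2, and 10 without wound 3, of which 8 were among the 10 genes. For settings without a share beside them, the share of all probe sets called is not given here, so those counts lack a background. Calls lower in wound numbered 0 in every setting. The median log2 fold change turned to -0.0131 after quantile normalization, with or without the block, and to -0.0130 relative to all probe sets. The member median per array stayed higher in wound by 0.052. Quantile normalization can remove a change that the brightest probe sets share, so these values do not decide the direction. As deposited, the 99th percentile of all probe sets was also higher in wound, by 0.37. The median log2 fold change stayed above 0 in all other settings, at 0.20 to 0.25 with 1 array left out. The cause of these changes was not tested.

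Quantile normalization turned 34 of the 63 genes below 0, and among those named in the text: RPL17 -0.085, RPL23 -0.34, RPL3 -0.00098, RPL35 -0.031, RPL36A -0.046, RPL39L -0.094, RPL9 -0.045, RPLP0 -0.12, RPLP1 -0.17, RPLP2 -0.081, RPS10 -0.19, RPS14 -0.0103, RPS23 -0.029, RPS25 -0.016, RPS27L -0.19, RPS3 -0.056, RPS4Y1 -0.015, RPS6 -0.0098 and RPS7 -0.052. With the second probe set RPL9 was at -0.26 and RPS13 at 0.0036. With 1 array left out RPS10 ran over -0.0094 to 0.045 and RPS27L over -0.062 to 0.14. Of 479 values of named ribosomal protein genes under alternatives, 454 kept their direction. This count is not a test of direction, because many of the values could not turn. The block, the filter on dim probe sets and limma with trend and robust leave each log2 fold change as it was. Other choices of probe set do the same where a gene has 1 probe set. Quantile normalization held 19 of the 25 values that reversed. The differences between probe sets near the floor of the arrays are limited by background.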

Other observations

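Genes close to ribosomal proteins that the naming rule leaves out were also measured. RPL7L1, a relative of RPL7, had log2 intensities of 8.75, 8.79 and 8.76 in wound and 8.26, 8.32 and 8.30 in control, without overlap (0.47 ± 0.022, SE, n = 3 each, limma adjusted p = 0.00926, and 0.0417 with the block). After quantile normalization its difference was 0.23 (adjusted p = 0.0627). RPL26L1, which RefSeq also lists as RPL26, had 13.72, 13.67 and 13.59 in wound and 13.34, 13.41 and 13.35 in control (0.29 ± 0.042, adjusted p = 0.0472, and 0.0925 with the block). RPL22L1, the relative of RPL22, had 10.54, 10.59 and 10.69 in wound and 9.86, 10.19 and 10.28 in control (0.50 ± 0.12, adjusted p = 0.148). RSL1D1, a nucleolar protein with a ribosomal L1 domain, had 8.18, 8.17 and 7.88 in wound and 7.18, 7.40 and 7.15 in control (0.84 ± 0.12, adjusted p = 0.0441, and 0.0647 with the block).

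RPSAP58, which RefSeq also lists as RPSA, had 12.84, 12.95 and 12.98 in wound and 12.44, 12.63 and 12.64 in control in its brightest probe set (0.35 ± 0.070, limma adjusted p = 0.0933). A dim probe set of RPSAP58 went the other way, at 4.64, 5.52 and 6.65 in wound and 6.27, 6.50 and 6.37 in control (-0.78 ± 0.53, adjusted p = 0.692), with a wide spread among the wounds. A bright probe set annotated to both GNAL and RPS13 had 13.48, 13.41 and 13.50 in wound and 13.12, 13.24 and 13.32 in control (0.24 ± 0.059, adjusted p = 0.153), while the probe sets annotated to RPS13 alone were all dim. RACK1, a scaffold protein of the small subunit, had 12.25, 12.11 and 12.38 in wound and 12.23, 12.09 and 12.10 in control (0.11 ± 0.082, adjusted p = 0.731).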
